A study of Rattus norvegicus with 23 samples.

Results

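The genes described here are 9 that build the contacts between liver cells: the connexins Gjb1, Gjb2 and Gja1, the claudins Cldn1, Cldn2 and Cldn3, the tight junction plaque gene Tjp1, the tight junction membrane gene Ocln and the cadherin Cdh1. They were chosen by name from 14218 genes that at least 1 probe set names alone. No rule on their values was used, but earlier results of these data were known when they were chosen. All 9 were found, on 16 of 31099 probe sets, and each gene was read from whichever of its probe sets had the highest mean of all 23 arrays. The other 7 probe sets, which belong to 5 of the genes, are given beside them. All values are log2 expression values, so a difference of 1 is a doubling.

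Rat hepatocytes, endothelial cells of the liver sinusoids (LSECs) and the resident liver macrophages, Kupffer cells (KCs), were measured on 23 arrays in 8 groups. Hepatocytes came from hepatocyte monolayers on collagen (HM), from collagen sandwiches (CS) in which collagen also covers the cells, and from a pair of 3D models, 3DHL with LSECs and 3DHLK with LSECs and KCs. In these models a detachable film of chitosan and hyaluronic acid lay over the hepatocytes and carried the other cells. LSECs came from both 3D models and KCs from 3DHLK, and all of these were collected on day 12, while KC monolayers were collected on day 3, before KCs entered a 3D model. Each group has 3 arrays, apart from 2 for the KCs of 3DHLK. Hepatocytes and LSECs came from the same isolations of female Lewis rats, the KCs were bought as cryopreserved primary rat cells, and no group carries a genetic change or drug. The cells of the 3D models were separated with magnetic beads carrying antibodies against SE-1 for LSECs and against CD163 for KCs. The labels do not say whether the replicates of a group came from separate animals or cultures. The p-values therefore measure the spread between replicate arrays, pooled over all 8 groups, which may be technical.

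Hepatocytes are epithelial cells whose canalicular face, where bile is secreted, is sealed off by tight junctions. Claudins and occludin (Ocln) form the seal in the membrane, Tjp1 ties it to actin, E-cadherin (Cdh1) holds neighbouring cells together in adherens junctions, and connexins form gap junction channels through which ions and small molecules pass. Gjb1 and Gjb2 are the connexins of hepatocytes, whereas Gja1 is the connexin of many mesenchymal and other non-parenchymal cells. Covering hepatocytes with a collagen layer is known to restore their polarity and their bile canaliculi.

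The labelled cell types were checked against marker lists, because several member differences lie between cell fractions. The mean level of 18 hepatocyte markers was 11.72 to 12.77 on every array of the 3D models, HM and CS, those labelled LSEC and KC included, and 6.74 to 7.34 on the KC monolayers. The mean of 18 endothelial markers was 6.04 to 6.21 on the LSEC arrays and 5.81 to 6.39 on the hepatocyte arrays. The sinusoidal markers Stab2 (5.85 and 5.98 on the LSEC arrays of 3DHL and 3DHLK, 5.46 to 5.87 in the hepatocyte groups) and Lyve1 (5.72 and 5.88, against 5.46 to 5.88) lay close to the hepatocyte groups. Some other endothelial markers read above every hepatocyte group in both models, such as Vwf (5.81 and 5.98, against 5.31 to 5.57) and Nos3 (6.68 and 6.94, against 6.03 to 6.53). Others did not, such as Eng (7.40 and 7.65, against 7.44 to 9.66). Of the 18 endothelial markers 2 were higher and 2 lower on the LSEC arrays than on the hepatocyte arrays of 3DHL, and 9 higher and 4 lower in 3DHLK, where cyclic loess gave 3 higher and 4 lower. The mean of 14 macrophage markers was 6.85 to 7.14 on the KC arrays of 3DHLK and 11.90 to 12.13 on the KC monolayers. The arrays labelled LSEC and those labelled KC of 3DHLK therefore go against their labels in these list means. They are called LSEC fractions and KC fraction below. The values were normalized as quantiles, with array medians of 7.41 to 7.53, and hold no true 0 and no detection calls, so no marker can be called absent. Replicates of a group correlated at r of 0.987 to 0.998 over all probe sets, except in the KC monolayers (0.942 to 0.969).

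All 9 genes varied widely between the groups. The range of the 8 group means ran from 2.10 for Ocln to 5.46 for Gja1, and 81.7% of all genes had a smaller range than Ocln and 98.3% a smaller range than Gja1. The KC monolayers had the lowest mean of all 8 groups for 8 of the 9 genes, and each of the 8 passed the test against the next lowest group. Among all genes, 29.3% were lowest in the KC monolayers and passed the same test. Gja1 was the exception, with its lowest means in the LSEC fractions. Of the 28 pairs of groups, between 13 (Gjb1 and Cldn3) and 25 (Cldn2) differed for a member, while 41.7% of all such tests over all genes were called.

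**Figure D1:**
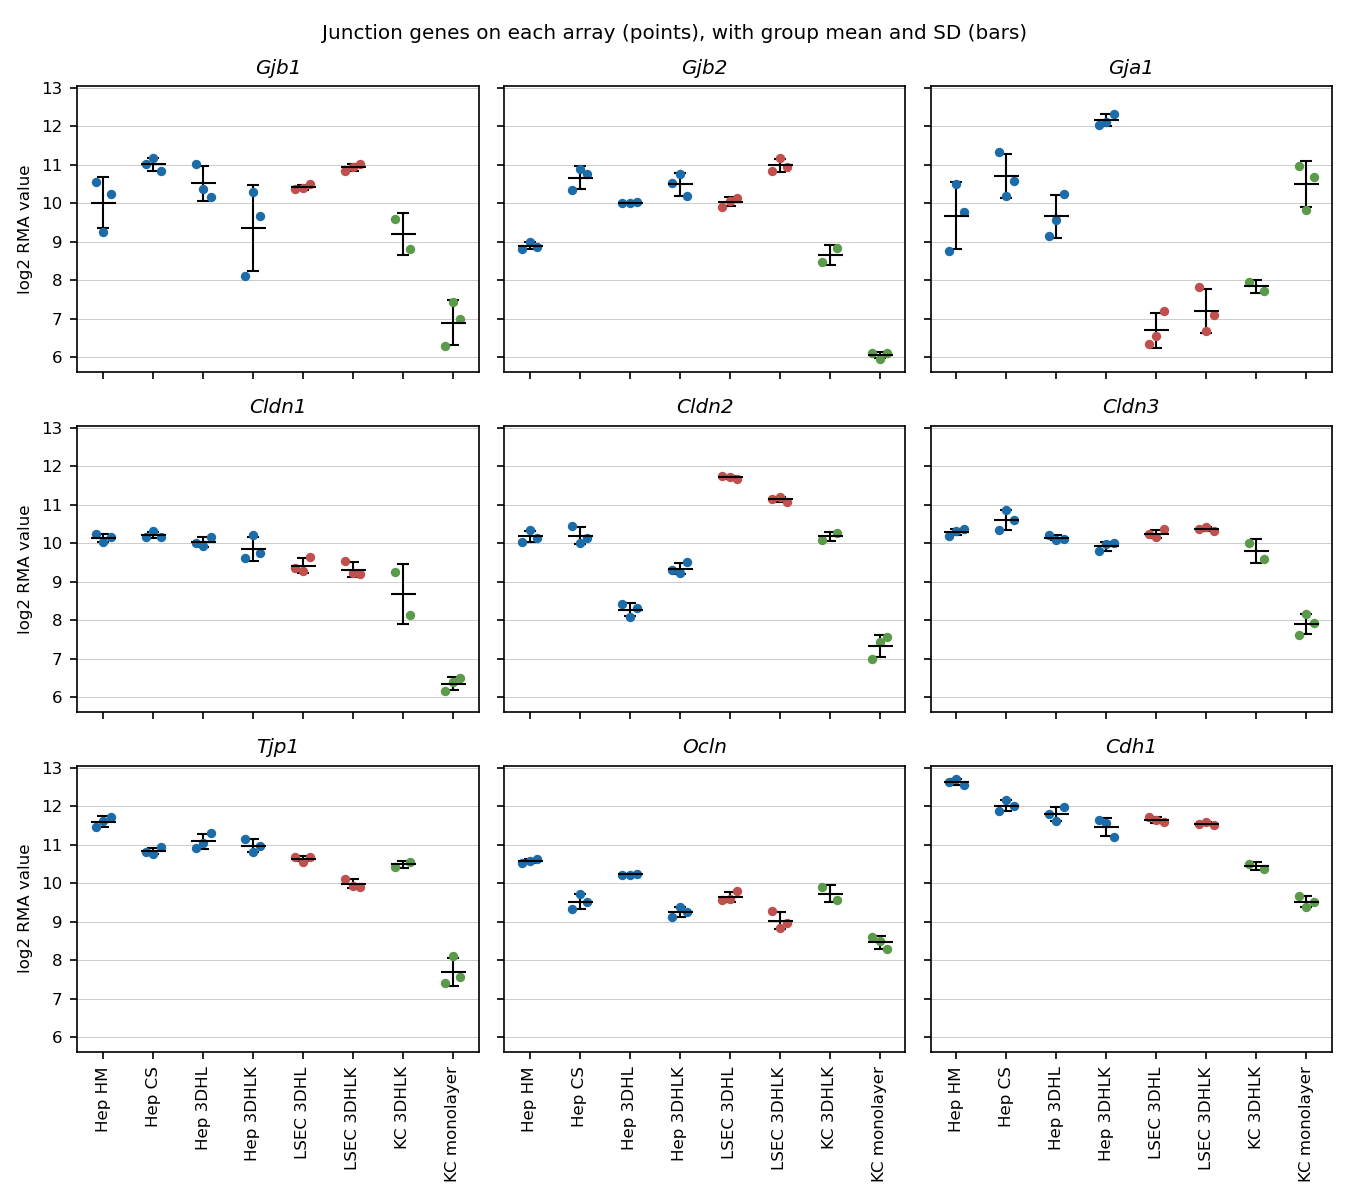
Log2 RMA value (y axis) of the 9 junction genes on each of the 23 arrays (points; blue hepatocytes, red LSEC fractions, green KCs) in the 8 groups along the x axis, with group mean and SD as black bars. Gja1 alone was not lowest in the KC monolayers, Cldn2 was highest in the LSEC fractions, and Gjb1 was widely spread in 3DHLK hepatocytes, from 8.11 to 10.30.

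Of the members, Gjb2 was called in 4 of 4 comparisons between hepatocyte cultures and Ocln and Cldn2 in 3 of 4. The promoters of Gjb2 and Ocln are printed because they belong to the hepatocyte genes that changed most often here and run in opposite directions between HM and CS. They were searched on both strands for CAGGTG, a site that the repressors of the Snail and Zeb families can bind, which is in capitals below. Each runs 5′ to 3′ from 250 bases before to 50 bases after a start listed for the gene on GRCr8. The Gjb2 window lies at chr15:35381904-35382203 and the Ocln window at chr2:33441149-33441448, both on the minus strand. The RefSeq spans of these genes reach further upstream, to 35393817 for Gjb2 and 33442207 for Ocln. Neither window therefore covers the outermost start of its gene.
Gjb2: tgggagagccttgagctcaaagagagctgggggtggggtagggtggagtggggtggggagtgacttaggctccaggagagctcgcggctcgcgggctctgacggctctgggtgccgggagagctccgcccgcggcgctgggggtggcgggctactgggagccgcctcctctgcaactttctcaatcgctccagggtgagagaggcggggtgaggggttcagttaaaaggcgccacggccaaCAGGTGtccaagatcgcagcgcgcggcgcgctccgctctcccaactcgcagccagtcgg
Ocln: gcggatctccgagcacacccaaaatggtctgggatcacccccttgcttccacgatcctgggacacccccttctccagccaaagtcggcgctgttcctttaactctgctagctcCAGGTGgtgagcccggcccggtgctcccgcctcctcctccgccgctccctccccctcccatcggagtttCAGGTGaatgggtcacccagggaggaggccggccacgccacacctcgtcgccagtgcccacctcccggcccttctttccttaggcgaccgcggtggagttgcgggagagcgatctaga

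Ocln held 2 matches and Gjb2 held 1, all on the gene's own strand. Of 7 members with a promoter in the table, only Cldn3 held another, on the opposite strand, and 18.7% of all 27457 promoters hold this motif. The other motif searched, that of the hepatocyte factor HNF1, which overlapped none of these matches, was in 0.055% of all promoters and in none of these 7. Cdh1 and Cldn2 had no entry. A match describes the letters of the window and shows no binding. Transcripts of such repressors did not move together between HM and CS. Snai1 read 6.72 and 7.70 (difference 0.99, limma adjusted p = 0.0254) and Zeb2 8.30 and 7.14 (-1.16, adjusted p = 0.00337). Zeb1 read 9.09 and 8.90, and Snai2 and Snai3 were not among the genes tested.

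The comparison of CS with HM asks how hepatocytes change when collagen covers them. Gjb2 was 3.41-fold higher in CS, whereas Ocln (2.07-fold), Tjp1 (1.70-fold) and Cdh1 (1.53-fold) were lower. These 4 of 9 genes stand beside 21.8% of all genes called in this comparison, with 11.1% higher and 10.7% lower. Groups were compared with limma on 8 group means and p-values were adjusted over all 14218 genes. The fit shares 1 spread per gene over all 8 groups, so arrays outside a comparison enter its p-values. The median SD over all genes was 0.09 in HM and 0.32 in the KC monolayers.

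Gjb2, a gap junction subunit of hepatocytes, read 8.82, 9.0 and 8.86 on the HM arrays and 10.34, 10.89 and 10.76 on the CS arrays. The lowest CS array lay above the highest HM array by more than the range within either group. The log2 difference was 1.77 ± 0.15 (SE, n = 3 and 3, limma adjusted p = 2.2e-08). Gjb1, the other hepatocyte connexin, read 10.55, 9.26 and 10.23 in HM and 11.01, 11.17 and 10.84 in CS. The arrays did not overlap, yet 1 HM array stood far below the others, and the difference of 0.99 (95% interval 0.16 to 1.82) did not pass (adjusted p = 0.0839). Gja1 read 8.76, 10.50 and 9.77 in HM and 11.34, 10.20 and 10.58 in CS. These groups overlapped, and the difference of 1.03 (0.21 to 1.84) did not pass (adjusted p = 0.0658). It was 0.57 without HM replicate 1, and passed without HM replicate 2 (1.44, adjusted p = 0.0149), without CS replicate 2 (1.28, 0.0448) and in a fit without the KC monolayers (adjusted p = 0.0475), and Cldn3 passed without CS replicate 1 (0.44, 0.0438), so that 2 members were higher in each of these settings. In those settings 16.3% to 31.8% of all genes were called. Gjb1 passed when only the arrays compared were fitted (limma adjusted p = 0.0321), where 29.8% of all genes were called.

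Ocln, the occludin of the tight junction seal, read 10.52, 10.57 and 10.61 in HM and 9.32, 9.72 and 9.52 in CS. All CS arrays lay below all HM arrays, by -1.05 ± 0.13 (SE, adjusted p = 5.31e-06). Tjp1 read 11.45, 11.62 and 11.73 in HM against 10.82, 10.75 and 10.93 in CS (-0.77 ± 0.15, adjusted p = 6.45e-04). Cdh1 read 12.64, 12.70 and 12.54 against 11.86, 12.15 and 12.01 (-0.62 ± 0.13, adjusted p = 0.00104). None of these 3 genes overlapped between the groups, and neither did 5 of 9 members in all, a pattern that 46.3% of all genes shared. The other probe set of Ocln fell by 0.90 and missed the threshold (adjusted p = 0.0704). The claudins showed no called difference, with 0.08 (95% interval -0.34 to 0.49) for Cldn1, 0.02 (-0.27 to 0.32) for Cldn2 and 0.31 (0.02 to 0.61) for Cldn3.

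Other junction genes, from lists written by hand, were also lower in CS more often than higher. Of 14 adherens junction genes, 6 fell and none rose (limma, 8 and 0 at an unadjusted p under 0.05), with a median difference of -0.43 against 0.04 over all genes. The largest falls were those of Lmo7 (-1.15), which binds afadin, and the LIM domain gene Pdlim5 (-1.03). Of 18 tight junction membrane and plaque genes 7 fell, led by Ildr2 (-2.27) and the scaffold gene Mpdz (-0.95), and of 28 polarity and apical genes 10 fell, led by villin (Vil1, -2.21) and ezrin (Ezr, -1.88), both proteins of microvilli. Of 12 desmosome genes 4 fell, with Dsg2 (-0.95) and Ppl (-0.76) first, and 2 rose, Dsg1 (0.50) and Perp (0.48), but with cyclic loess 3 were lower and 4 higher. Of 13 further claudins Cldn4 (-2.37) and Cldn6 (-1.69) fell and Cldn14 (0.70) rose, and of 10 further connexins and pannexins Gjb5 (-1.02) and Panx1 (-0.37) fell. Among 10 canalicular transporters, the bile salt export pump Abcb11 (1.28) and the sterol transporter Abcg5 (0.92) rose and the flippase Atp8b1 (-0.68) fell.

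**Figure D2:**
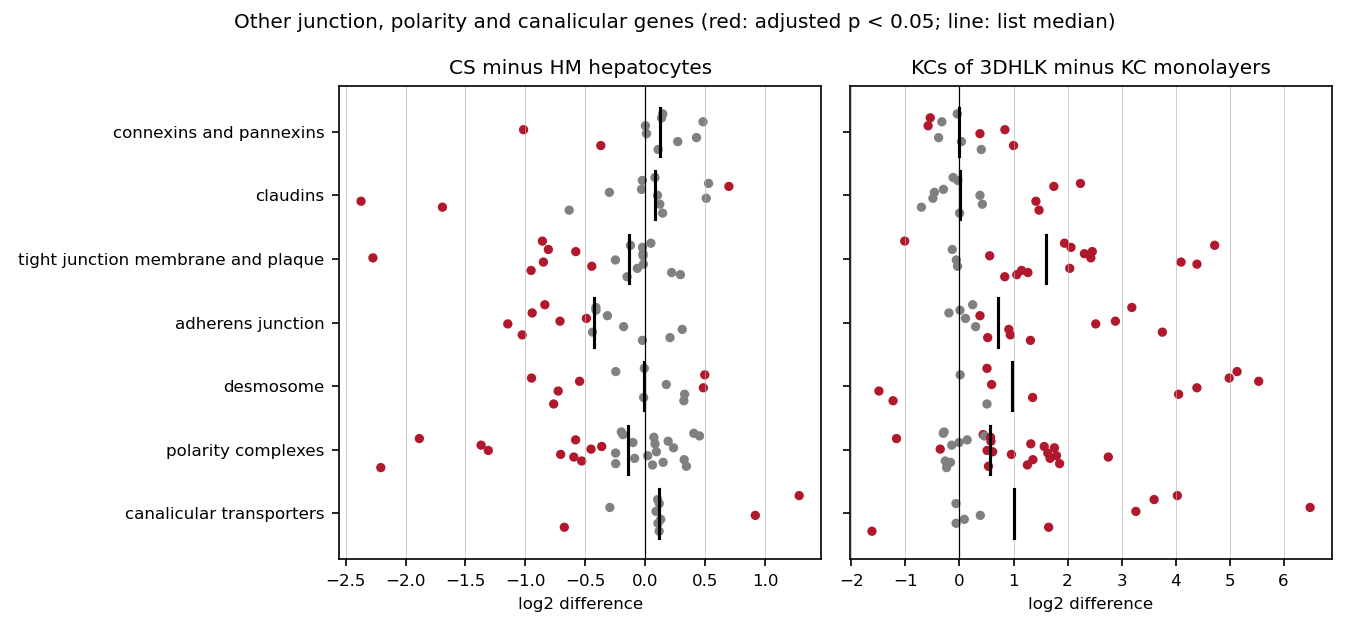
Log2 difference (x axis) of genes of 7 hand-written lists of junction, polarity and canalicular genes without the 9 members, CS minus HM hepatocytes at left and KC fraction of 3DHLK minus KC monolayers at right, with 1 point per gene, red where the adjusted p was under 0.05 and a black line at the list median. At left, the adherens junction median lies at -0.43, and at right the tight junction median lies at 1.61.

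Markers of other cells also moved between HM and CS. A list of 16 markers of stellate cells and fibroblasts had 10 genes higher in CS (median 0.80), with list means of 6.18 to 8.22 on the HM arrays and 7.69 to 8.99 on the CS arrays. Of 18 hepatocyte markers 7 were higher, and of 9 cholangiocyte markers 4 were lower. Their part in the differences above was not tested. In such bulk RNA, fewer cells of a type and less RNA per cell cannot be told apart.

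The order of the Gja1 values within a group was set beside that of the stellate cell and fibroblast list. In HM, the list mean was 6.18, 8.22 and 7.31 on replicates 1, 2 and 3, in the same order as Gja1. In CS it was 8.99, 7.69 and 8.26, again in the same order. The orders matched in 3 of the 4 hepatocyte groups, but not in 3DHL hepatocytes. They also matched in the LSEC fraction of 3DHLK and not in that of 3DHL. Orders of 3 arrays can match by chance, and the share of all genes with such matches was not counted. Col1a2, 1 of the 3 collagen genes of that list, was also among the 3 genes with the pattern nearest to Gja1 over the 8 groups. Gjb1 had the opposite order to that list within HM and neither order in the other 3 hepatocyte groups. In the KC monolayers Gja1 was at 9.82 to 10.97 while the list mean was 7.50 to 7.80.

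**Figure D3:**
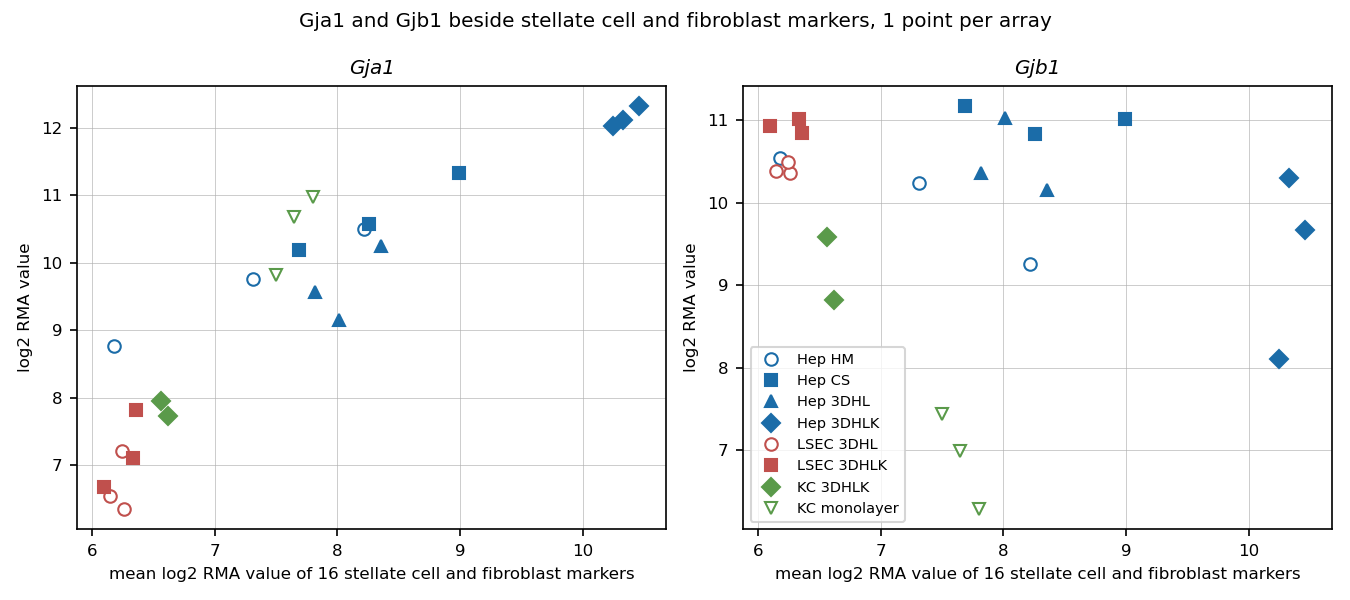
Log2 RMA value of Gja1 (left) and Gjb1 (right) on the y axes against the mean log2 value of 16 stellate cell and fibroblast markers (x axis), 1 point per array, with colours and shapes for the 8 groups. The 3DHLK hepatocytes are highest on both axes for Gja1, at 12.03 to 12.33, and the LSEC fractions have the lowest means of Gja1, at 6.70 and 7.20.

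The comparison of 3DHL with HM sets hepatocytes kept under the film and LSECs beside a plain monolayer. The 3DHL hepatocytes also came from the bead separation, so film, LSECs and separation cannot be told apart here. Gjb2 was 2.18-fold higher in 3DHL hepatocytes, and Cldn2 (3.74-fold), Cdh1 (1.79-fold) and Tjp1 (1.43-fold) were lower. In this comparison 11.7% of all genes were called, 7.04% higher and 4.7% lower. Of the called genes 60% were higher, and 48.5% with centring on housekeeping genes. Arrays did not overlap for 5 of 9 members and for 47.3% of all genes. Cldn2, which forms a cation and water pore in tight junctions, read 10.04, 10.34 and 10.14 in HM and only 8.41, 8.09 and 8.31 in 3DHL hepatocytes. Its difference of -1.90 ± 0.14 (SE, n = 3 and 3, limma adjusted p = 9.34e-09) was many times the spread within either group. Gjb2 read 10.01, 10.01 and 10.03 in 3DHL, above every HM array (1.12 ± 0.15, adjusted p = 2.81e-05). Cdh1 read 11.79, 11.60 and 11.96 (-0.84 ± 0.13, adjusted p = 9.81e-05). Tjp1 read 10.91, 11.04 and 11.30, below every HM array (-0.52 ± 0.15, adjusted p = 0.0268), but its call was lost without HM replicate 2 or 3 or Hep_3DHL replicate 1 or 2 (adjusted p = 0.0784 to 0.129) and with cyclic loess (-0.58, 0.0566). Ocln read 10.22, 10.22 and 10.24, lower than every HM array by -0.34, which did not pass (adjusted p = 0.104) and passed when only the arrays compared were fitted (0.00576), with cyclic loess (0.0216) and with housekeeping centring (0.0318).

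Against CS, 3DHL hepatocytes again had less Cldn2, by -1.92 ± 0.14 (limma adjusted p = 2.36e-09), and more Ocln, by 0.71 ± 0.13 (adjusted p = 5.22e-04), though its other probe set gave 0.66 and no call (adjusted p = 0.183). For Ocln, 3DHL hepatocytes thus lay between HM and CS, with no overlap with either. Gjb2 was lower than in CS by -0.65 ± 0.15 (adjusted p = 0.00378), and it too lay between the other cultures. Cldn3 read 10.21, 10.09 and 10.11 against 10.35, 10.86 and 10.60 in CS (-0.46 ± 0.14, adjusted p = 0.0235), and it was not called without CS replicate 2 or 3 or Hep_3DHL replicate 2 or 3 (adjusted p = 0.06 to 0.132). Of all genes 21.8% were called here, 12.8% higher and 9.03% lower, and arrays did not overlap for 4 of 9 members and 50.6% of all genes. The comparisons among HM, CS and 3DHL share arrays and are not independent of each other. Gja1 differed by -1.05 (95% interval -1.86 to -0.24, adjusted p = 0.0597) and passed without CS replicate 2 (-1.30, 0.0389) or Hep_3DHL replicate 3 (-1.35, 0.0352), while leaving out the other arrays gave values as small as -0.73. It also passed with the mean of its probe sets (0.0178), without low genes (0.0487), with cyclic loess (0.0355), with housekeeping centring (0.0468), with only the arrays compared (0.0395) and without the KC monolayers (0.0391).

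Several junction genes that fell in CS were higher in 3DHL than in CS. Of 28 polarity and apical genes 7 were higher, led by Ezr (1.81) and Vil1 (1.16). Of 18 tight junction genes 4 were higher, led by Ildr2 (1.84) and Mpdz (1.05), and Cxadr (-0.78) was lower. Of 14 adherens junction genes 3 were higher, led by Lmo7 (1.23) and Afdn (0.69), the afadin that binds nectins, and Nectin2 (-0.64) was lower. Cldn4 (1.63) was higher than in CS, and Cldn14 (-0.77) and Cldn22 (-0.74) were lower. Of 18 hepatocyte markers, 9 were lower in 3DHL than in CS (median -0.52), and whether this bears on the members was not tested.

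**Figure D4:**
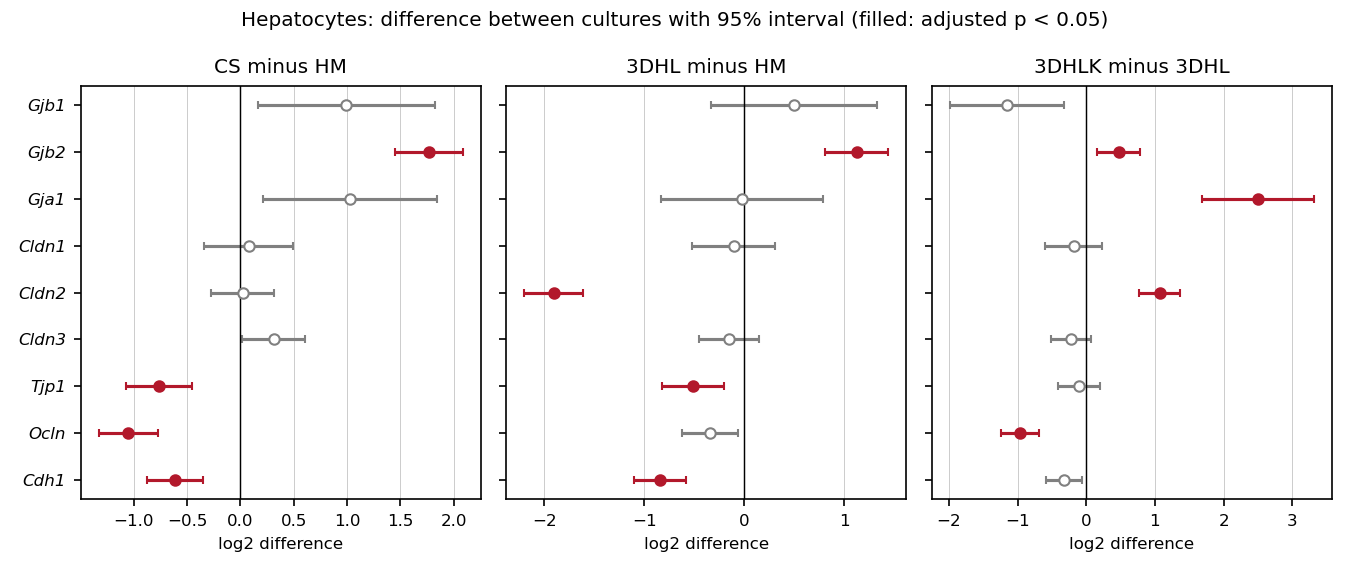
Log2 difference (x axis) of the 9 genes (y axis) between hepatocyte cultures, as points with 95% intervals from limma, for CS minus HM, 3DHL minus HM and 3DHLK minus 3DHL, red and filled where the adjusted p was under 0.05. Gjb2 is higher in all 3 panels, Cldn2 lies at 0.02, -1.90 and 1.07, and Gja1 stands out at 2.50 between 3DHLK and 3DHL.

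The comparison of 3DHLK with 3DHL hepatocytes asks what the added KCs change. Gja1 was 5.66-fold higher in 3DHLK, Cldn2 2.10-fold and Gjb2 1.39-fold higher, and Ocln 1.95-fold lower. Of all genes 11.5% were called, 7.72% higher and 3.76% lower. Of the called genes 67.2% were higher, against 77.8% with cyclic loess and 54.7% with housekeeping centring, while 5 of 9 members and 36.5% of all genes did not overlap. Gja1 read 9.15, 9.57 and 10.25 in 3DHL hepatocytes and 12.03, 12.12 and 12.33 in 3DHLK hepatocytes, where it was higher than on any other array. The difference was 2.50 ± 0.39 (SE, n = 3 and 3, limma adjusted p = 8.76e-05). Cldn2 read 9.30, 9.21 and 9.50, above every 3DHL hepatocyte array (1.07 ± 0.14, adjusted p = 1.07e-05) and below every HM and CS array. Ocln read 9.13, 9.39 and 9.26, below every 3DHL hepatocyte array (-0.97 ± 0.13, adjusted p = 1.71e-05) and 0.26 below the mean of CS, a gap that did not pass (adjusted p = 0.139). Its other probe set gave -0.70 between 3DHLK and 3DHL without a call (adjusted p = 0.229).

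Gjb2 read 10.52, 10.77 and 10.18 in 3DHLK hepatocytes (0.47 ± 0.15, adjusted p = 0.0472). That call was lost without any 1 of Hep_3DHL replicates 1, 2 and 3 and Hep_3DHLK replicates 1 and 2 (adjusted p = 0.0976 to 0.211), when only the arrays compared were fitted (0.0625) and with housekeeping centring (0.0525). Gjb1 read 8.11, 10.30 and 9.67 against 11.02, 10.36 and 10.15, with 1 3DHLK array far below the rest. Its difference of -1.16 (95% interval -1.99 to -0.32) did not pass (adjusted p = 0.0666), was -0.53 without that low array, replicate 1, and passed without Hep_3DHLK replicate 2 (-1.63, 0.00888) and in a fit without the KC monolayers (0.0438), so that 2 members were lower. In those settings 11.3% and 21.4% of all genes were called. Tjp1 differed by -0.11 (-0.42 to 0.20), while its other probe set was lower by -0.49 (limma adjusted p = 0.0149). Cldn1 (-0.18, -0.60 to 0.23) and Cldn3 (-0.22, -0.52 to 0.08) did not pass, and neither did Cdh1 (-0.32, adjusted p = 0.112), which passed with housekeeping centring (0.0387).

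Further connexins that rose with Gja1 were Gja5 (7.15 to 10.68, difference 3.53, adjusted p = 8.55e-09) and Gjc1 (6.18 to 8.16, difference 1.98, adjusted p = 2.51e-07), both known from vascular and muscle cells, whereas Gjb5 (-1.11) fell. Of 13 further claudins Cldn4 (-1.19) and Cldn7 (-0.80) fell. Of 18 tight junction genes 3 fell, led by Lsr (-0.62) and Cgn (-0.52), of 14 adherens junction genes Afdn (-0.75) and Jup (-0.42) fell, and of 28 polarity genes 5 fell, led by Mark2 (-0.65) and Patj (-0.56). The desmosome plaque gene Pkp1 (1.41) rose and Pkp2 (-0.39) fell, and none of 10 canalicular transporters was called by limma, against 1 lower at an unadjusted p under 0.05. Of 18 genes of epithelial to mesenchymal transition 7 rose, led by Mmp2 (3.36) and S100a4 (2.43), with Snai1 at 1.94 and Zeb2 at 1.69.

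The list of 16 markers of stellate cells and fibroblasts had 11 genes higher in 3DHLK hepatocytes (median 2.15), with list means of 7.82 to 8.36 on the 3DHL and 10.25 to 10.46 on the 3DHLK arrays. Of 14 macrophage markers 7 were higher, with list means of 6.60 to 6.88 and 7.34 to 7.64. Of 18 endothelial markers 5 were called higher and none lower, with list means of 5.92 to 6.05 and 6.33 to 6.39. The median difference of that list, however, was -0.07, against -0.08 over all genes. Among the 5 were Mrc1 (6.73 to 9.35, and 11.41 in the KC monolayers), Tek (5.44 to 7.73) and Eng (7.96 to 9.66). Others read lower without a call, such as Vwf (5.57 to 5.31) and Nos3 (6.27 to 6.03). Of 9 cholangiocyte markers 2 were higher (median -0.13). The part of these cells in the rise of Gja1, Gja5 and Gjc1 was not tested.

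The comparison of the LSEC fractions with hepatocytes asks how the fractions of 1 model differ. In 3DHL the LSEC fraction had 10.8-fold more Cldn2 and less Gja1 (7.75-fold), Cldn1 (1.53-fold), Ocln (1.49-fold) and Tjp1 (1.36-fold) than the hepatocytes. Here 40.4% of all genes were called, 18.5% higher and 21.9% lower, and 66.3% did not overlap, against 5 of 9 members. In 3DHLK, Gja1 was 31.1-fold, Tjp1 1.99-fold and Cldn1 1.45-fold lower and Cldn2 3.48-fold, Gjb1 2.98-fold, Gjb2 1.42-fold and Cldn3 1.36-fold higher. There 60.4% of all genes were called, 34.7% higher and 25.7% lower, and 7 of 9 members stand beside that share. Arrays did not overlap for 7 of 9 members and 71.9% of all genes.

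Cldn2 read 11.75, 11.71 and 11.67 in the LSEC fraction of 3DHL and 11.14, 11.20 and 11.08 in that of 3DHLK, above every array of the other 6 groups. The differences from hepatocytes were 3.44 ± 0.14 (SE, n = 3 and 3, limma adjusted p = 2.89e-13) and 1.80 ± 0.14 (adjusted p = 1.16e-09). Gja1 read 6.35, 6.55 and 7.21 in the LSEC fraction of 3DHL and 7.81, 6.67 and 7.11 in that of 3DHLK. It was lower than in hepatocytes by -2.95 ± 0.39 (adjusted p = 6.63e-06) and -4.96 ± 0.39 (adjusted p = 1.14e-09). Of the 16 markers of stellate cells and fibroblasts 10 were lower in the LSEC fraction of 3DHL and 14 in that of 3DHLK. Their list means were 6.15 to 6.26 and 6.10 to 6.36, and of 9 cholangiocyte markers 5 and 6 were lower. Of 18 hepatocyte markers 6 were higher in the LSEC fraction of 3DHL (median 0.35), and 9 were higher and 1 lower in that of 3DHLK (median 0.43). Among them Cps1 read 13.28 in the LSEC fraction and 11.71 in the hepatocytes of 3DHL, and Alb, near the top of the arrays' range, 14.51 and 14.49. What part these cells had in the values of Gja1 and Cldn2 was not tested.

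Gjb1 was tight in both LSEC fractions, with 10.36, 10.39 and 10.49 in 3DHL and 10.85, 10.93 and 11.02 in 3DHLK. Its called difference in 3DHLK (1.58 ± 0.40, adjusted p = 0.00208) stands against the widely spread hepatocytes of that model. Gjb2 differed by 0.02 (95% interval -0.30 to 0.33) in 3DHL and by 0.50 ± 0.15 (adjusted p = 0.00741) in 3DHLK, where leaving out Hep_3DHLK replicate 3 ended the call (0.34, 0.0669). Cdh1 differed by -0.14 (-0.40 to 0.13) and 0.08 (-0.18 to 0.35), and its LSEC arrays lay at 11.52 to 11.73. Tjp1 was lower by -0.44 (adjusted p = 0.0224) and -0.99 (adjusted p = 1.05e-05), whereas its other probe set gave 0.17 and -0.07, neither called. The Tjp1 call in 3DHL was lost without Hep_3DHL replicate 3 (-0.33, 0.128) or LSEC_3DHL replicate 2 (-0.40, 0.0762), with the mean of its probe sets (-0.14, 0.368), with cyclic loess (-0.32, 0.221) and with housekeeping centring (-0.37, 0.103). For Cldn1 the calls, at -0.61 (adjusted p = 0.0192) and -0.54 (adjusted p = 0.0257), were lost in 3DHL without Hep_3DHL replicate 3 or LSEC_3DHL replicate 1 or 2 (adjusted p = 0.059 to 0.0773) and with cyclic loess (0.058). In 3DHLK they were lost without Hep_3DHLK replicate 2 or LSEC_3DHLK replicate 2 or 3 (0.0766 to 0.157). Ocln was called in 3DHL (-0.58, adjusted p = 0.00204) and not in 3DHLK (-0.24, adjusted p = 0.131), where it passed without LSEC_3DHLK replicate 1 (-0.36, 0.0345) and with the mean of its probe sets (-0.51, 0.0395).

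**Figure D5:**
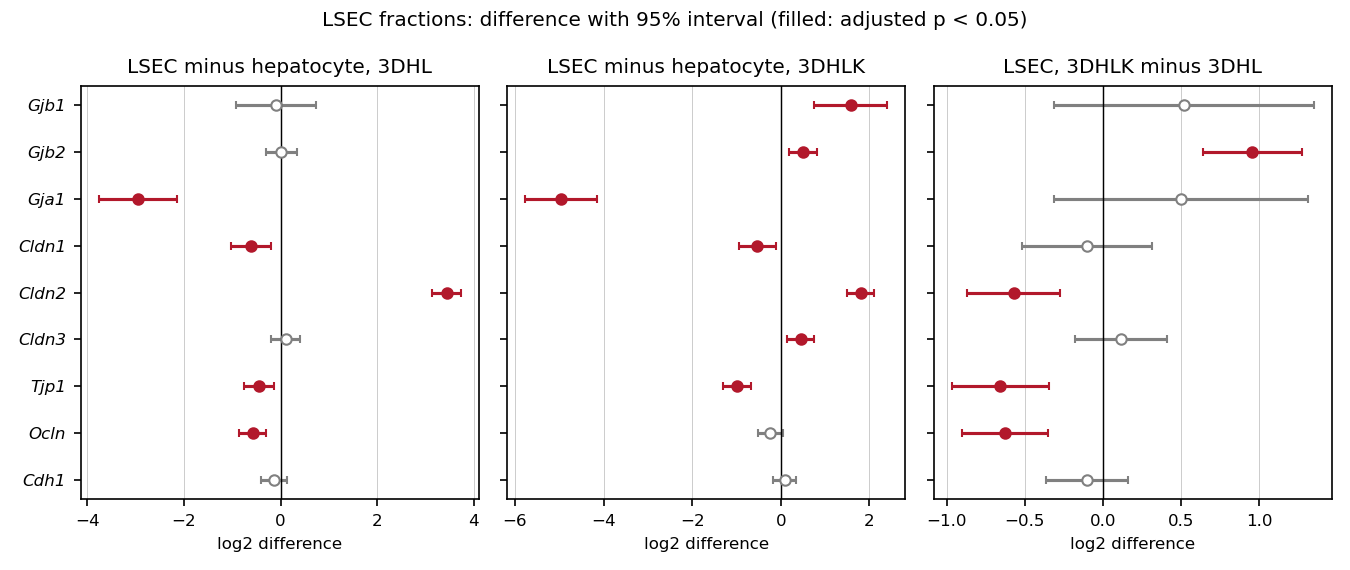
Log2 difference (x axis, a different scale in each panel) of the 9 genes (y axis) for the LSEC fractions, as points with 95% intervals from limma: LSEC fraction minus hepatocytes in 3DHL and in 3DHLK, and LSEC fraction of 3DHLK minus that of 3DHL, red and filled where the adjusted p was under 0.05. Cldn2 (3.44 and 1.80) and Gja1 (-2.95 and -4.96) stand apart between LSEC fractions and hepatocytes, and Gjb2 (0.96) alone is higher in the LSEC fraction of 3DHLK than in that of 3DHL at an adjusted p under 0.05.

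Among other junction genes, Cldn4 was lower in the LSEC fractions (-3.85 in 3DHL and -1.82 in 3DHLK), as were Cldn6 (-1.82 and -1.66) and Lmo7 (-1.94 and -2.68). Of 28 polarity and apical genes 12 were lower in each model, led in both by Ezr (-1.97 and -2.27). Of 10 further connexins and pannexins 3 were higher in 3DHL, led by Gja3 (0.58) and Gja4 (0.55), and Gjb5 (-1.45) was lower. In 3DHLK 6 were higher, led by Gja3 (0.65) and Gjd2 (0.62), and 3 lower, led by Gja5 (-3.46) and Gjc1 (-1.56), and with cyclic loess 3 were higher and 3 lower. Of 13 further claudins 4 were higher and 3 lower in 3DHL, and 7 and 2 in 3DHLK. Of 18 tight junction genes 6 were higher and 3 lower in 3DHL, and 9 and 5 in 3DHLK. Cldn14 was higher in both (0.94 and 1.62), and so was Sympk (0.81 and 0.82), which codes for a protein of tight junctions and of RNA processing.

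Between the LSEC fractions of 3DHLK and 3DHL, Gjb2 was 1.94-fold higher and Tjp1 (1.58-fold), Ocln (1.54-fold) and Cldn2 (1.49-fold) were lower, while 7.47% of all genes were called, 3.58% higher and 3.89% lower (of the called genes 47.9% higher, and 37.3% with housekeeping centring), and arrays did not overlap for 5 of 9 members and 37.3% of all genes. Gjb2 rose from 9.91, 10.06 and 10.14 to 10.85, 11.17 and 10.95, with no overlap (0.96 ± 0.15, SE, n = 3 and 3, limma adjusted p = 2.92e-04). Tjp1 fell from 10.67, 10.56 and 10.69 to 10.12, 9.94 and 9.89 (-0.66 ± 0.15, adjusted p = 0.0071). Ocln fell from 9.56, 9.59 and 9.80 to 9.27, 8.83 and 8.97 (-0.63 ± 0.13, adjusted p = 0.00426), a fall its other probe set gave as -0.54 without a call, as did the mean of both (-0.58, adjusted p = 0.0951). Cldn2 fell by 0.57 (adjusted p = 0.0137), and this call was lost without LSEC_3DHL replicate 1 (-0.55, 0.0639) or LSEC_3DHLK replicate 3 (-0.54, 0.0683) and with cyclic loess (-0.56, 0.062). Gjb1 did not overlap between these groups either, at 0.52 ± 0.40 (SE, 95% interval -0.31 to 1.35, limma adjusted p = 0.532). It passed when only the arrays compared were fitted (SE 0.09, limma adjusted p = 0.00416), where 2 members were higher and 17.7% of all genes were called. Of 28 polarity and apical genes 3 fell, led by Msn (-1.54) and Vil1 (-1.36), and of 14 adherens junction genes 5 fell, led by Pdlim5 (-1.03) and Lmo7 (-1.0). Of the tight junction genes Esam (-1.11) and Magi3 (-0.84) led 3 that fell, and of the claudins Cldn14 (0.88) and Cldn4 (0.85) rose.

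The changes from 3DHL to 3DHLK were also set against each other in the LSEC fractions and the hepatocytes. For Gja1 the LSEC change minus the hepatocyte change was -2.00 ± 0.55 (SE, limma adjusted p = 0.022), and for Cldn2 it was -1.64 ± 0.20 (adjusted p = 9.52e-06). Of all genes 10.3% were called in this test, 3.51% higher and 6.81% lower. Gja1 was 0.50 higher in the LSEC fraction (adjusted p = 0.543) and 2.50 higher in hepatocytes. Cldn2 moved in opposite directions, from 11.71 down to 11.14 in the LSEC fractions and from 8.27 up to 9.34 in hepatocytes. The call of Gja1 was lost when any 1 of 6 arrays was left out, namely Hep_3DHL replicate 1 or 2, Hep_3DHLK replicate 3, LSEC_3DHL replicate 3 or LSEC_3DHLK replicate 2 or 3 (-1.74 to -1.96, adjusted p = 0.0503 to 0.0732). For Gjb1 the difference of 1.67 did not pass (adjusted p = 0.0636), was 1.05 without Hep_3DHLK replicate 1, and passed without Hep_3DHLK replicate 2 (2.14, 0.0119) and without the KC monolayers (0.0395). Tjp1 (-0.55) passed as a further lower member when only the arrays compared were fitted (0.0325) and without the KC monolayers (0.0185). There 20.4% and 21.4% of all genes were called.

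The KC monolayers show how far these genes read in cultured macrophages. These KCs were bought as cryopreserved cells and collected on day 3, while HM hepatocytes were isolated from rats and collected on day 12. Cell type, source and day cannot be told apart in the comparison with HM. Against HM hepatocytes, 8 of 9 members were lower, from 4.30-fold for Ocln to 15.1-fold for Tjp1, where 70.2% of all genes were called, 25.4% higher and 44.8% lower. No array of these groups overlapped for the same 8 members, as for 66.3% of all genes. With only the arrays compared in the fit, 56.3% of all genes were called instead of 70.2%. Tjp1 read 7.41, 8.10 and 7.55 in the KC monolayers (-3.91 ± 0.15, SE, n = 3 and 3, limma adjusted p = 5.54e-16). Cldn1 read 6.18, 6.39 and 6.50 (-3.78 ± 0.20, adjusted p = 2e-13) and Gjb2 6.11, 5.97 and 6.12 (-2.83 ± 0.15, adjusted p = 2.47e-13). Gja1, which macrophages are known to express, read 10.97, 9.82 and 10.68, overlapping the HM arrays (0.81, 95% interval 0.0017 to 1.63, adjusted p = 0.0687). It was 0.36 without HM replicate 1, and passed without HM replicate 2 (1.23, 0.0101) or KC_d3 replicate 2 (1.15, 0.02), with cyclic loess (1.39, 0.00312), with the mean of its probe sets (0.00582) and with housekeeping centring (0.0423), where 1 member was then higher. In the settings where it passed, 66.1% to 70.5% of all genes were called. KC_d3 stands here for the KC monolayers of day 3. All 14 adherens junction genes were lower than in HM, led by Jup (-4.07) and Lmo7 (-4.01), but with cyclic loess 10 were, and the catenins Ctnnb1 (0.21) and Ctnnd1 (0.16) turned in sign. Lower too were 7 of 12 desmosome genes, led by Dsc2 (-5.97) and Dsg2 (-5.87).

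Against the KC monolayers, the KC fraction of 3DHLK was higher for 8 of 9 members and lower for Gja1, where 65.3% of all genes were called, 44.5% higher and 20.8% lower. Of the called genes 68.2% were higher, and 56.7% with cyclic loess, which moved the median difference of all genes from 0.27 to 0.12, as housekeeping centring moved it to 0.16. In the comparison with HM the median moved from -0.22 to -0.07 with cyclic loess. All 9 members had no overlap of arrays, as had 64.6% of all genes. With only the arrays compared in the fit, 41.5% of all genes were called instead of 65.3%. Cldn2 read 10.09 and 10.26 in the KC fraction and 7.0, 7.43 and 7.57 in the monolayers (2.85 ± 0.16, SE, n = 2 and 3, limma adjusted p = 7.87e-13). Tjp1 read 10.43 and 10.54 (2.80 ± 0.17, adjusted p = 2.52e-12). Gja1 read 7.95 and 7.73, below all monolayer arrays (-2.65 ± 0.44, adjusted p = 1.73e-05). Cdh1 read 10.51 and 10.36 against 9.66, 9.37 and 9.52 (0.92 ± 0.14, adjusted p = 6.99e-06), and with cyclic loess this shrank to 0.25 (adjusted p = 0.0958). Cldn1 differed widely between the 2 arrays of the KC fraction, at 9.24 and 8.14. Of the hepatocyte markers 17 of 18 were higher in the KC fraction (median 5.03) and all 14 macrophage markers were lower (median -5.25), and their part in the member differences was not tested. The day of culture and the culture itself cannot be told apart in this comparison. Of the wider lists, 14 of 18 tight junction genes were higher, led by Cgnl1 (4.72) and Lsr (4.39), as were 8 of 12 desmosome genes, led by Dsp (5.54) and Dsc2 (5.14), and the canalicular exporter Abcc2 read 13.11 against 6.62. Among 13 further claudins 4 were higher (median 0.0025), led by Cldn12 (2.24) and Cldn14 (1.75). Among 10 further connexins and pannexins 3 were higher, led by Panx1 (1.0), and 2 were lower, Gja6 (-0.58) and Gja4 (-0.54), with a median of -0.0021, so that these lists lay below the median of all genes.

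Placed in order, the group means of the 9 genes fell into few distinct steps. Of 63 neighbouring pairs of groups, 7 for each gene, 21 differed. For Gjb1, Cldn1 and Cldn3 only the step down to the KC monolayers passed, and the other 7 groups formed a slope with no called step. For Gja1, 3DHLK hepatocytes (12.16 ± 0.15, SD, n = 3) led, followed by CS (10.71), KC monolayers (10.49), HM (9.68) and 3DHL hepatocytes (9.66), with no difference from one of these to the next, and then by the KC fraction (7.84) and the LSEC fractions (7.20 and 6.70). For Cldn2, the LSEC fraction of 3DHL (11.71 ± 0.04) led that of 3DHLK (11.14 ± 0.06). Then came CS (10.20), the KC fraction (10.18) and HM (10.17) with no called difference from one to the next. Below them were 3DHLK hepatocytes (9.34), 3DHL hepatocytes (8.27) and KC monolayers (7.33), each below the one before. For Gjb2, the LSEC fraction of 3DHLK (10.99), CS (10.66) and 3DHLK hepatocytes (10.49) came before both fractions of 3DHL (10.03 and 10.02), then HM (8.89) and the KC fraction (8.65), and then the KC monolayers (6.06). Tjp1, Ocln and Cdh1 were highest in HM, at 11.60, 10.57 and 12.62, and for Ocln the step from HM to 3DHL hepatocytes (10.23) did not pass.

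The genes whose pattern over the 8 groups lay nearest to each member were found by the root mean square difference of the centred group means, in log2 units. For Gja1 they were Tpm2 (0.42), Bgn (0.52) and Col1a2 (0.57), and for Cldn2 Paqr9 (0.48), C9 (0.51) and Gulo (0.52). For Gjb2 they were Amy1 (0.23), Mttp (0.33) and Cyp2d2 (0.36), and for Gjb1 Tst (0.27), Hpn (0.28) and Mgst3 (0.29). Closer matches were found for Cldn3 with Amt (0.12), Ak3 (0.12) and Nipsnap3b (0.13), for Cldn1 with Nipal2 (0.16), the junction gene Igsf5 (0.17) and Tut4 (0.18), and for Tjp1 with Vsig10 (0.18), Stard13 (0.19) and Ddah1 (0.20). Ocln lay nearest to Tekt1, Daam1 and Trak2 (each 0.19) and Cdh1 to Dlg3, Inava and Wwc1 (each 0.25). Among the members themselves Cldn1 and Tjp1 were the nearest pair (0.37), and Gja1 lay 1.94 to 2.84 from each of the others.

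The other probe sets followed the main ones to differing degrees. Those of Cldn1, whose group means spanned 4.06 and 5.56, were also lowest in the KC monolayers (5.79 and 4.45), as were those of Ocln (6.68) and Tjp1 (7.38). The second Gja1 probe set by level was highest in 3DHLK hepatocytes (9.54) and lowest in the LSEC fraction of 3DHL (6.02), and fell from CS to 3DHL by 1.29 (limma adjusted p = 0.0142). Its gaps between hepatocytes and LSEC fractions were smaller than those of the main probe set. Hepatocytes and LSEC fraction read 7.12 and 6.02 in 3DHL, and 9.54 and 6.23 in 3DHLK. The remaining Gja1 probe set and the other Cdh1 probe set read low on all arrays, with means of 4.04 and 3.90 and ranges of group means of 1.33 and 0.24. The low Gja1 probe set was highest in the KC monolayers (5.0, against 4.07 in the KC fraction and 3.86 in HM), and its difference of 1.14 from HM passed (adjusted p = 1.26e-07). Between 3DHLK and 3DHL hepatocytes it differed by 0.03 (adjusted p = 0.932), and in the LSEC fraction of 3DHLK it was higher than in hepatocytes (0.40, adjusted p = 0.0138), against the direction of the main one. The low Cdh1 probe set did not pass where the main one did in CS against HM (-0.01), 3DHL against HM (-0.10) and the KC fraction against the monolayers (0.10). Whether either lies above background is unknown.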

How the data were processed

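Total RNA was amplified (NuGen Ovation Pico) and hybridized to Affymetrix arrays of the rat genome. The paper itself gives the labelling as the standard Affymetrix target process and names no amplification kit. The authors used Simpleaffy for quality control and RMA in R (version not given in the sources used here), so that each deposited value is a log2 level of 1 probe set, corrected for background, quantile normalized and summarized. Quantile normalization gives all arrays almost the same distribution, so a shift of most genes would be hidden. Precision is limited by how many arrays each group has, and signal over background is unknown.

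Of 31099 probe sets, 20832 name 1 gene in the platform annotation; 57 controls and the 436 and 9831 probe sets with several genes or none were not used. Groups come from the sample titles; the name KC monolayers comes from the paper. Comparisons used limma 3.58.1 (R 4.3.3; lmFit on 8 group means, 10 contrasts, eBayes, Benjamini-Hochberg over 14218 genes, threshold 0.05). Members and lists were chosen with earlier results of these data known. Named were all members, the 2 largest called differences each way per junction, polarity, transporter and mesenchymal transition list where given, the 3 genes nearest each member, and markers where a result turned on them. Snai1 and Zeb2 in 3DHLK hepatocytes were chosen after their values were seen. Lists were described by counts, without set tests. The fit was tested on simulated data. Alternatives were the mean of all probe sets, other probe sets, a filter at the 30th percentile (which kept all 9 members), cyclic loess, centring on 13 housekeeping genes, a trended and robust eBayes, the arrays compared alone, the replicate number as a block, a fit without KC monolayers and leaving out each array. The block on only the arrays compared and the list counts under other scalings were added after seeing the data. Promoters are from RefSeq (GRCr8). Plots were made in Python 3.11.15 (matplotlib 3.10.9).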

Additional observations from a re-analysis of the deposited data

Results flagged for a closer look

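The change of 2 members from 3DHL to 3DHLK differed between the LSEC fractions and the hepatocytes by the test of the difference itself. For Gja1 the LSEC change minus the hepatocyte change was -2.00 on the log2 scale (limma adjusted p = 0.022, n = 3 in each of 4 groups). For Cldn2 it was -1.64 (adjusted p = 9.52e-06), with all 3 LSEC arrays of 3DHLK below and all 3 hepatocyte arrays of 3DHLK above those of 3DHL. In hepatocytes, 11 of 16 markers of stellate cells and fibroblasts were higher in 3DHLK, and in the LSEC fractions 1 was lower. The part of such cells in the difference of Gja1 was not tested.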

How the results depend on the processing

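Of 51 called member differences, 31 kept direction and call under every alternative run, and 733 of their 787 alternative values did; of 39 that were not called, 16 and 597 of 660 did. No call of Gjb2 between CS, HM and 3DHL, of Cldn2 between hepatocyte cultures or of Gja1 between 3DHLK and 3DHL hepatocytes was lost, apart from the lowest Gja1 probe set (0.03).

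Members higher in CS than HM numbered 2 instead of 1 when only the arrays compared were fitted, with or without the block, and without KC monolayers (leaving out 1 array, 1 to 2). The share of all genes called was 29.8%, 26.9% and 31.8% in these settings, against 21.8%. Members lower in 3DHLK than 3DHL hepatocytes numbered 2 instead of 1 with housekeeping centring and without KC monolayers (1 to 2). There the share of all genes was 13.9% and 21.4%, against 11.5%. Members lower in LSEC fractions than hepatocytes of 3DHL numbered 2 instead of 4 with cyclic loess (2 to 4), with 37.4% of all genes called against 40.4%. Members higher in LSEC fractions of 3DHLK numbered 2 instead of 1 with only the arrays compared, with or without the block. Without the block 17.7% and with it 15.8% of all genes were called, against 7.47%. Members higher in KC monolayers than HM numbered 1 instead of 0 (limma, 1 at an unadjusted p under 0.05) in several settings. These were the mean of probe sets, cyclic loess, housekeeping centring and the block on the arrays compared (0 to 1 when an array was left out). In this order, 70.5%, 68.1%, 69.2% and 55.1% of all genes were called, against 70.2%. In the test between LSEC and hepatocyte changes, members higher numbered 1 instead of 0 with only the arrays compared and without KC monolayers. That count was 0 to 1 when an array was left out, and 2 at an unadjusted p under 0.05 (limma). Members lower numbered 3 instead of 2 in the same settings (1 to 2 when an array was left out). There 20.4% and 21.4% of all genes were called, against 10.3%.

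Signs turned for differences that were not called: Cldn1 in 3DHLK against 3DHL hepatocytes (0.15 for the mean of probe sets, 0.0541 and 0.59 for its other probe sets) and between the changes (-0.30, -0.12 and -0.87), Gjb1 in LSEC fractions of 3DHL (0.0358, cyclic loess) and the low Cdh1 probe set (0.0098, 0.0324 and 0.0551). They also turned for the called Gja1 with its low probe set (0.33 and 0.40 in LSEC fractions against hepatocytes, 0.069 between the changes) and for Tjp1 in LSEC fractions of 3DHL (0.17). Leaving out 1 array turned the sign of uncalled differences near 0: Cldn2 in CS against HM (-0.10 to 0.12), Gja1 in 3DHL against HM (-0.48 to 0.39), Tjp1 in 3DHLK against 3DHL hepatocytes (-0.20 to 0.0018), Gjb1 (-0.28 to 0.16) and Gjb2 (-0.0363 to 0.0797) in LSEC fractions against hepatocytes of 3DHL, Cdh1 (-0.0502 to 0.17) in 3DHLK, and Cldn1 between the LSEC fractions of both models (-0.21 to 0.0064) and between the changes (-0.0455 to 0.25). The causes were not tested.

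In no comparison with 3 same-numbered pairs did every pair's deviations correlate above 0.1 (r from -0.308 to 0.335), although those of the LSEC fractions were all positive (0.066 to 0.114), as were the 2 KC pairs (0.244 and 0.218), so the arrays were taken to share only a number. With the replicate block on all arrays all 51 called differences stayed called and all 39 others uncalled; for Gjb2 in CS against HM it gave an adjusted p of 2.25e-08.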
